A study of Mus musculus with 23 samples.

Results

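Toll-like receptors sense microbial and self-derived molecules, and their adaptors carry the signal into the cell. A set of 10 genes of this system was followed through bone of WT and Sarm1 KO mice with and without type 1 diabetes (T1D): the receptors Tlr1, Tlr2, Tlr3, Tlr4, Tlr7, and Tlr9, and the adaptors Myd88, Tirap, Ticam1, and Ticam2. They were chosen by gene symbol, and all 10 were found among the 17644 genes of the deposited expression table and among the 14364 genes with enough counts to be tested. RNA-Seq was performed on marrow-depleted femur and tibia of 23 female C57BL6/N mice at 11 weeks of age. There were 5 nondiabetic WT mice (WT Control) and 6 diabetic ones (WT T1D), and 6 nondiabetic KO mice (KO Control) and 6 diabetic ones (KO T1D), with 1 mouse per library. T1D mice had received streptozotocin, a toxin of pancreatic beta cells, at 100 mg/kg from 8 weeks of age on successive occasions and had been diabetic for 3 weeks, whereas controls had received saline. The KO was global, so every cell type of the mouse carried it. The paper describes both littermate and purchased WT mice and does not say which of them were sequenced.

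Toll-like receptors are single-pass membrane proteins with a leucine-rich outer part that binds the ligand and an inner TIR domain that binds adaptors with a TIR domain of their own. TLR1, TLR2, and TLR4 sit at the cell surface and detect lipoproteins and lipopolysaccharide, whereas TLR3, TLR7, and TLR9 sit in endosomes and detect double-stranded RNA, single-stranded RNA, and unmethylated CpG DNA. MYD88 serves nearly all of these receptors, TIRAP bridges it to TLR2 and TLR4, TICAM1 serves TLR3 and TLR4, and TICAM2 links TICAM1 to TLR4. SARM1, the protein targeted in the KO, is a further TIR-domain protein, and it is best known as an enzyme that consumes NAD in injured axons. In bone, these receptors are carried by macrophages, neutrophils, and other blood cells, and also by osteoblasts and osteoclast precursors.

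Total counts ranged from 16938101 to 20135592 per mouse. Sarm1 had from 5 to 32 counts per mouse, or 0.845 to 1.76 CPM (counts scaled to a common library total) in WT Control and 0.268 to 1.57 in KO Control. The libraries labelled KO did not carry clearly less of it: the log2 fold change of KO against WT was -0.55 ± 0.38 (SE, edgeR quasi-likelihood test, adjusted p = 0.9985) among controls and 0.78 ± 0.37 (edgeR adjusted p = 0.281) with T1D. Counts were given per gene and not per exon, and Sarm1 overlaps the gene Slc46a1, so these few counts cannot decide whether the KO was present. By qPCR, the paper reported Sarm1 as low in bone and significantly lower in KO than in WT bone. The WT T1D mice A3905 and A3906 stood apart from the rest. Their 8 osteoblast markers summed to 6047 and 4593 CPM, against 52758 to 117861 CPM in the other 21 mice, and their 5 markers of plasmacytoid dendritic cells summed to 60.6 and 65.1 CPM, against 118 to 201 CPM. They also lay outside the other 21 mice for B cell markers (163 and 199 against 359 to 982 CPM), neutrophil markers (18387 and 16680 against 8743 to 13764 CPM), and osteoclast markers (2036 and 2215 against 646 to 1562 CPM). Each of the 8 osteoblast markers had at least 530 counts in every mouse, so none of them was absent from any library. Mouse IDs beginning with A17 occurred in 1 WT Control and 3 WT T1D mice and in no KO mouse.

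Tlr3 and Tlr9 are the members on which the comparisons below turn, so the sequences around their start sites are shown, from 250 bases before to 50 bases after the start, as RefSeq gives them on GRCm38.p6. The Tlr3 window lies at chr8:45410331-45410630 on the minus strand, inside the annotated gene at chr8:45395665-45411075. The Tlr9 window lies at chr9:106222348-106222647 on the plus strand, at the 5' end of the gene at chr9:106222598-106226876. Capitals mark matches to any of 5 short motifs, searched on both strands: GAAA and GAAA with a pair of bases between them (core of the element bound by interferon regulatory factors), GGG and TTTCC with a pair of bases between them (NF-kB), GAGGAAG (PU.1, the master factor of myeloid cells), TGANTCA (AP-1), and TATAAA, a core promoter motif.
Tlr3: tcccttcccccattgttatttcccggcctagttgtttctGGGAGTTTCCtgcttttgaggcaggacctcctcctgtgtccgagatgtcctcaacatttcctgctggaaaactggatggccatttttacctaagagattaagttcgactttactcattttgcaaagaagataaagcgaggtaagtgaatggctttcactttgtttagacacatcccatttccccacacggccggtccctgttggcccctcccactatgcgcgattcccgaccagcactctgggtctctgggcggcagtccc
Tlr9: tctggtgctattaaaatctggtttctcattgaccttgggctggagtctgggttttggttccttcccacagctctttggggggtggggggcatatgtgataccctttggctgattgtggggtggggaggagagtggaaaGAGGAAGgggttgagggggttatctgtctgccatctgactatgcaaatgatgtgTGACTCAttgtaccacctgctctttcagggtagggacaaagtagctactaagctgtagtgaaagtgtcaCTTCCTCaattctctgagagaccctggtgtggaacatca

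The Tlr3 window held 1 NF-kB match, GGGAGTTTCC, at positions -211 to -202 (position -1 is the last base before the start), a motif found in 1.63% of 32851 promoters of the same length. The Tlr9 window held the PU.1 motif 2 times, at positions -112 to -106 and 12 to 18, and the AP-1 motif TGACTCA at positions -58 to -52. The PU.1 motif occurred in 13.6% and the AP-1 motif in 7.81% of all promoters. Of the other members with a promoter in the table, Myd88 held GAAAGCGAAA, a match to the interferon regulatory factor core present in 3.44% of promoters, at positions -40 to -31, beside 2 overlapping matches to the core promoter motif. Ticam1 and 1 of the 2 starts of Tlr1 each held 1 PU.1 match, and none of the 5 motifs was found in these windows of Tlr2 and Tirap. A match is a likeness of letters and not a measured binding site. Promoters were matched for 7 of the 10 members, and Tlr4, Tlr7, and Ticam2 are named only.

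The remaining members lie on several chromosomes of GRCm38.p6. Tlr2 lies at chr3:83836272-83841824, Tlr4 at chr4:66827551-66846581, and Tlr7 at chrX:167303380-167330574. Tlr1 lies at chr5:64924680-64933600, 19492 bases from its paralog Tlr6, and 7.89% of the 100-base stretches of its transcripts also occur in Tlr6. Tirap and Myd88 share chromosome 9 with Tlr9, at chr9:35184391-35200291 and chr9:119335934-119340018. Tirap overlaps the predicted gene Gm39318. Ticam1 lies at chr17:56269462-56276767 and Ticam2 at chr18:46558231-46574533. In Ticam2, 739 of 5693 of the 100-base stretches are also found in transcripts of the neighboring gene Tmed7, so the division of reads between those genes, and between Tlr1 and Tlr6, was estimated by the counting program. No such shared stretch was found for the other 8 members.

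Levels were compared between genes with TPM, a share of all transcripts that takes transcript length into account. In WT Control bone, Myd88 was the most abundant member, with TPM from 44.0 to 56.3 (median 48.7), above the range of every other member. Ticam1 followed with a median TPM of 14.1, then Tlr2 with 12.9 and Tlr9 with 10.8, and the ranges of these 3 overlapped, whereas the range of Tlr9 lay above that of Tlr7. Tlr7, Tirap, and Tlr1 formed a middle group with median TPM of 8.13, 8.00, and 7.70 that could not be ordered beyond the spread between mice. Ticam2 had a median TPM of 5.69 and lay above Tlr4, at a median of 4.37. Tlr3 was last with a median TPM of 2.89 (range 1.43 to 3.08), which overlapped that of Tlr4 (2.35 to 4.64). Myd88 stayed first and Tlr3 last in all 4 groups. In KO Control the medians of Tlr2 (14.3 TPM) and Ticam1 (13.5 TPM) changed places, and their ranges overlapped in each group.

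**Figure D1:**
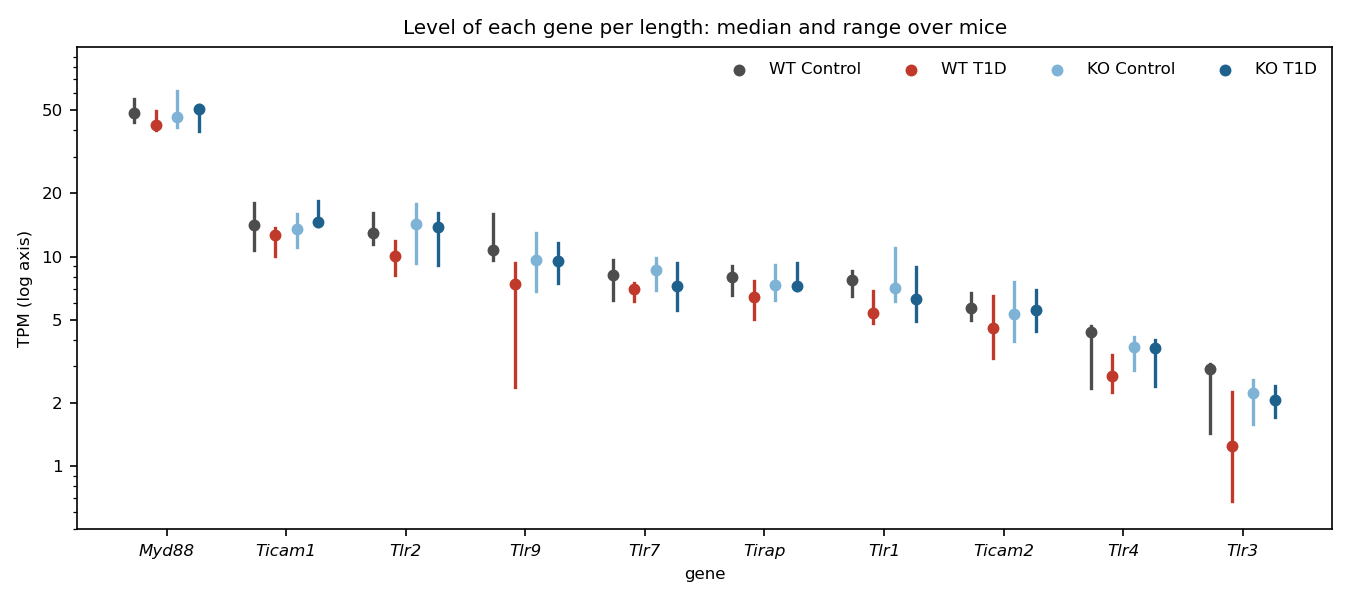
TPM of each member on a log axis, with the median (point) and the range over mice (line) for each group, in order of the median over all mice. Myd88 lay above the other members in every group, and Tlr3 had the lowest median, from 1.25 TPM in WT T1D to 2.89 TPM in WT Control.

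Each member had at least 49 counts in every mouse, so none was limited to a single group. The first question was how T1D altered these genes in WT mice. No member passed an adjusted p of 0.05 (edgeR quasi-likelihood test, Benjamini-Hochberg over 14364 genes), where 2.33% of all genes did. Before adjustment, 2 of the 10 were lower with a p under 0.05, Tlr3 and Tlr9, both endosomal, against 11.2% of all genes that were lower at that level. The median log2 fold change was -0.10 over the 10 members and -0.01 over all genes. With DESeq2, Tlr3 and Tlr9 passed, where 6.98% of all genes did. In KO mice, 0% of all genes passed the adjusted threshold with edgeR or DESeq2, and no member did, while 3.15% of all genes had an unadjusted edgeR p under 0.05. There, 1 member, Ticam1, was higher at an unadjusted p under 0.05, against 1.49% of all genes, and the median log2 fold change was -0.01 over the members and -0.00 over all genes.

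**Figure D2:**
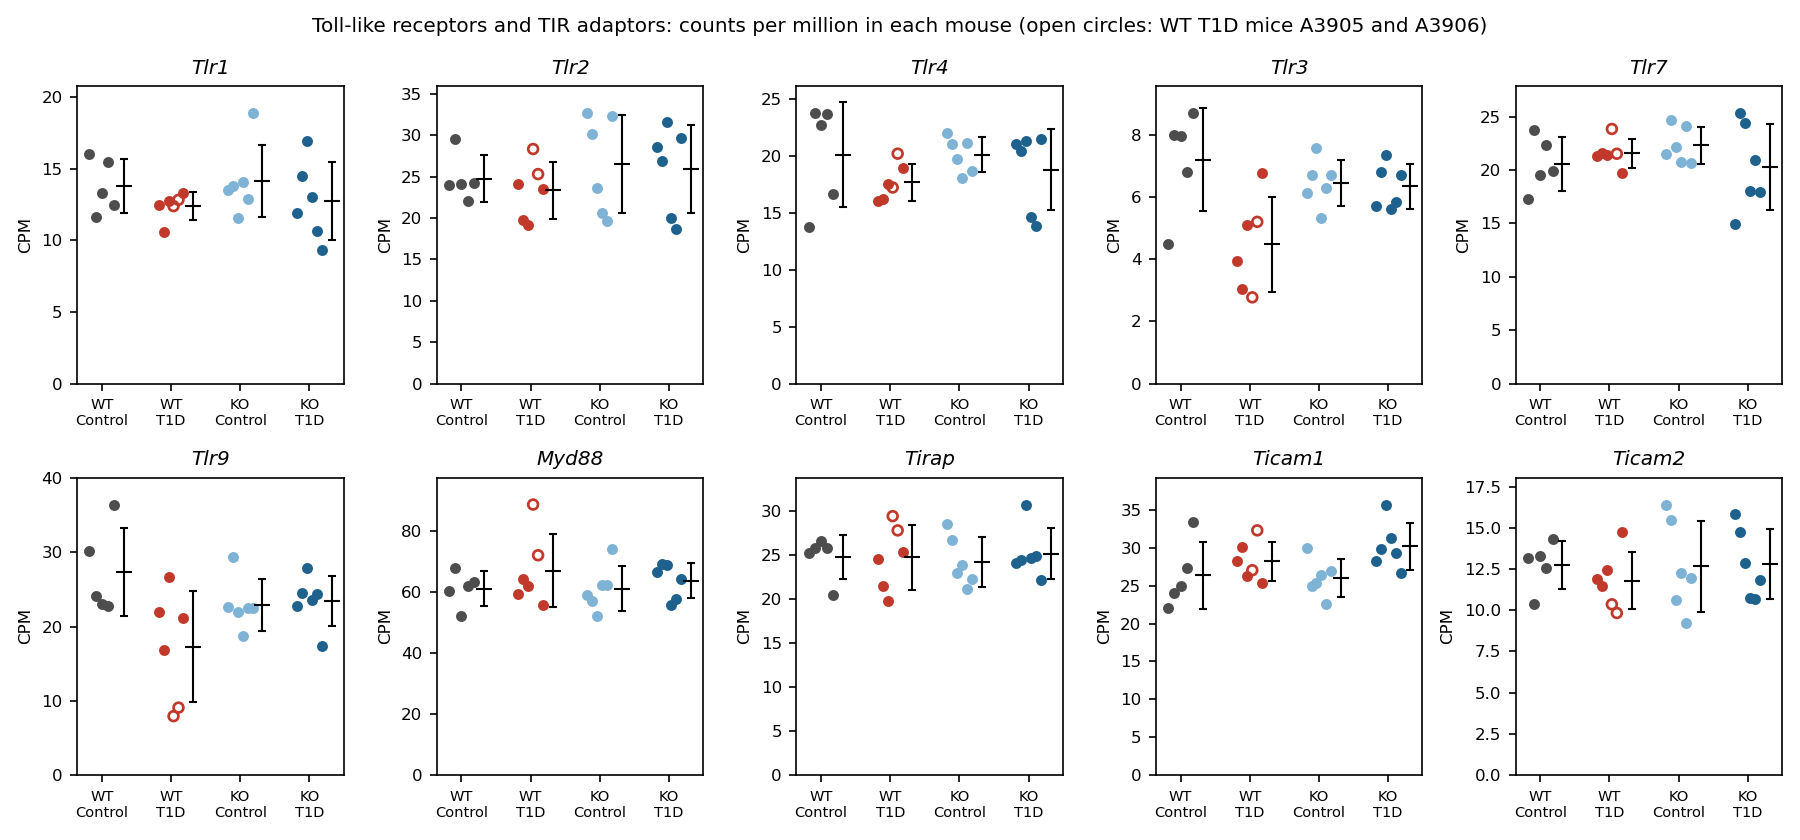
CPM of each member in each mouse, by group, with the mean and SD as bars beside the points. The WT T1D mice A3905 and A3906 are drawn as open circles and are the lowest 2 of all 23 mice for Tlr9, at 7.93 and 9.08 CPM.

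Tlr3, the endosomal receptor for double-stranded RNA, had the lowest log2 fold change in WT T1D among the 10, just below Tlr9, although Tlr9 was lower than Tlr3 on both TPM scales and among mouse IDs A36 to A39. The 5 WT Control mice had 4.49, 6.82, 7.97, 8.01, and 8.71 CPM, and the 6 WT T1D mice ranged from 2.77 to 6.78 CPM with a median of 4.52. All 6 WT T1D mice lay below the control mean of 7.20 CPM, and 3 of them lay below every control. The groups overlapped through the control mouse A1757, at 4.49 CPM. The log2 fold change was -0.69 ± 0.19 (SE, 95% interval -1.08 to -0.29), and the edgeR adjusted p of 0.0533 missed the threshold. It lay on the other side of that threshold with DESeq2 (-0.68, adjusted p = 0.0184) and among mouse IDs A36 to A39 (-0.67, adjusted p = 0.0399), and it was -0.61 (adjusted p = 0.304) without A3905 and A3906. Over 8 alternatives to the fit, the adjusted p ran from 0.00975 to 0.304.

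In KO mice, Tlr3 ranged from 5.32 to 7.57 CPM in controls (median 6.50) and from 5.62 to 7.36 CPM with T1D (median 6.28), so the groups overlapped almost completely. The log2 fold change with T1D was -0.02 ± 0.18 (95% interval -0.40 to 0.35, edgeR adjusted p = 1). The difference between the T1D effects in KO and WT mice was 0.66 ± 0.27 on the log2 scale (95% interval 0.11 to 1.21, edgeR adjusted p = 0.479). No gene passed the adjusted threshold for this interaction with edgeR or DESeq2 (0%), although 10.2% had an unadjusted edgeR p under 0.05, and 4.81% of all genes had a positive interaction at an unadjusted p under 0.05, as 2 of the 10 members did. Averaged over genotypes, the T1D effect on Tlr3 was -0.35 ± 0.13 (edgeR adjusted p = 0.189), where 0.111% of all genes passed the adjusted threshold. At an unadjusted p under 0.05, 1 member was lower on average, against 7.75% of all genes, and 1 was higher, against 8.64%.

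Tlr9, the endosomal receptor for CpG DNA, was also lower in WT T1D, and its value leaned on A3905 and A3906. WT Control mice had 22.7, 23.1, 24.1, 30.2, and 36.4 CPM, and WT T1D mice ranged from 7.93 to 26.7 CPM with a median of 19.0. In all, 5 WT T1D mice lay below every control, although the other, at 26.7 CPM, lay inside the control range. The log2 fold change was -0.66 ± 0.23 (95% interval -1.13 to -0.19, edgeR adjusted p = 0.0951). Without A3905 and A3906 it was -0.34 ± 0.16 (edgeR adjusted p = 0.437), and among mouse IDs A36 to A39, where these 2 were 2 of 3 WT T1D mice, it was -1.05 (adjusted p = 0.0170). Over 8 alternatives, the adjusted p of Tlr9 ran from 0.0122 to 0.437.

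KO Control mice ranged from 18.7 to 29.3 CPM of Tlr9 (median 22.5) and KO T1D mice from 17.4 to 27.8 CPM (median 24.01). Of the 6 KO Control mice, 5 also lay below every WT Control mouse, with a log2 fold change of -0.25 ± 0.23 (edgeR adjusted p = 0.9985). The T1D effect in KO mice was 0.03 ± 0.22 (95% interval -0.42 to 0.48, edgeR adjusted p = 1). The interaction was 0.69 ± 0.31 (95% interval 0.04 to 1.33, edgeR adjusted p = 0.479), and 0.36 (edgeR adjusted p = 0.926) without A3905 and A3906. In diabetic mice, KO against WT was 0.50 ± 0.18 for Tlr3 (edgeR adjusted p = 0.199) and 0.44 ± 0.22 for Tlr9 (edgeR adjusted p = 0.307). All 6 KO T1D mice lay above the WT T1D mean for both genes, and the groups overlapped. For Tlr9 that mean, 17.3 CPM, includes the low values of A3905 and A3906. Without these 2 mice, KO against WT with T1D was 0.11 for Tlr9.

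Tlr7, the third endosomal receptor, which detects single-stranded RNA, had smaller differences between groups. It had from 17.3 to 23.7 CPM in WT Control (median 19.9), 19.7 to 23.8 CPM in WT T1D (median 21.5), 20.7 to 24.6 CPM in KO Control (median 21.8), and 14.98 to 25.3 CPM in KO T1D (median 19.5). The T1D effect was 0.07 ± 0.11 (95% interval -0.16 to 0.30) in WT and -0.14 ± 0.11 (95% interval -0.36 to 0.08) in KO mice, and neither passed.

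**Figure D3:**
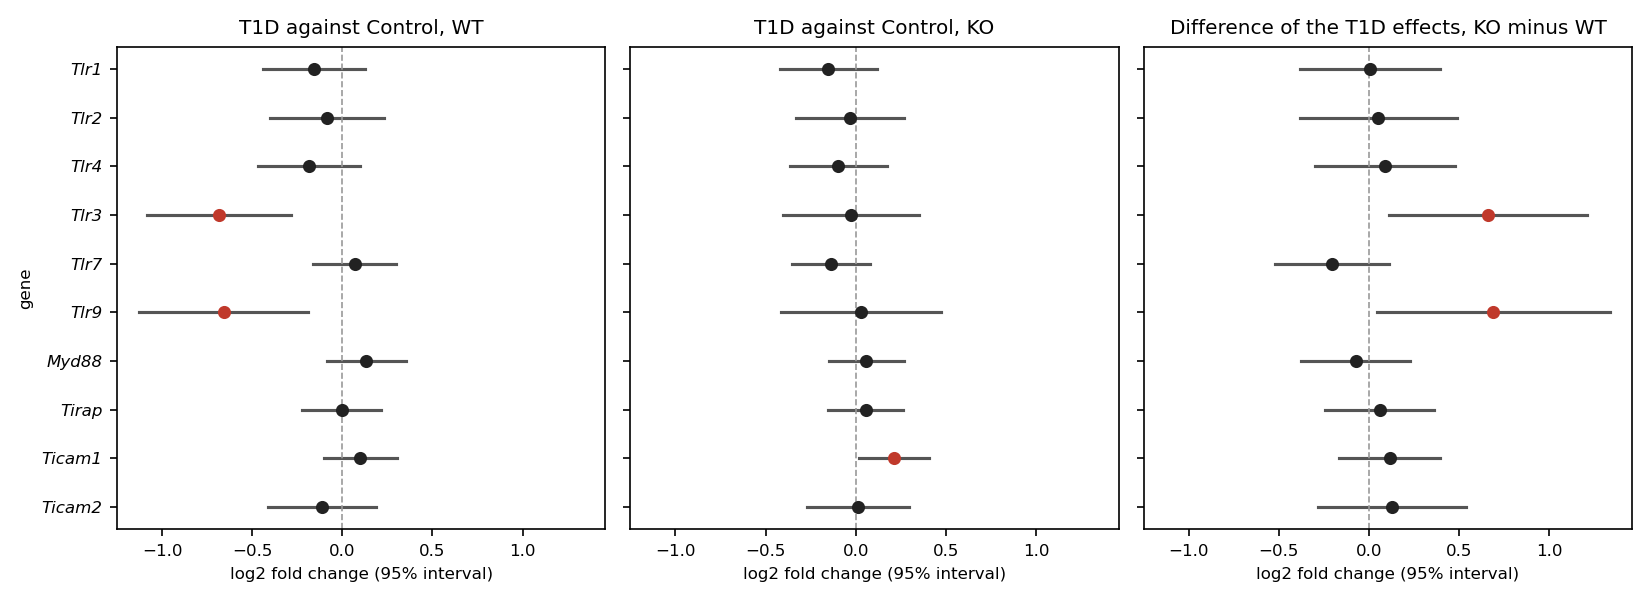
Log2 fold change of each member with its 95% interval for T1D in WT mice, T1D in KO mice, and the difference between them, with red points where the unadjusted p was under 0.05. Tlr3 and Tlr9 lay at -0.69 and -0.66 in WT mice and near 0 in KO mice, and Ticam1 lay at 0.21 in KO mice.

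The surface receptors had a highest to lowest CPM ratio over the 23 mice of 2.03 (Tlr1), 1.75 (Tlr2), and 1.73 (Tlr4), against 3.14 for Tlr3, 4.60 for Tlr9, and 1.69 for Tlr7. Tlr1, which pairs with TLR2 to detect triacylated lipoproteins, ranged from 11.6 to 16.0 CPM in WT Control and from 10.6 to 13.3 CPM in WT T1D, with all 6 T1D mice below the control mean of 13.8 CPM. Its T1D effect was -0.16 ± 0.14 in WT (95% interval -0.44 to 0.13) and -0.15 ± 0.13 in KO mice (95% interval -0.42 to 0.12). Tlr2, the common partner in lipoprotein sensing, ranged from 22.1 to 29.6 CPM in WT Control and from 19.2 to 28.4 CPM in WT T1D, with an effect of -0.08 ± 0.15 (95% interval -0.40 to 0.23). It spread more widely in KO mice, from 19.6 to 32.7 CPM in controls and from 18.7 to 31.6 CPM with T1D, and the effect there was -0.03 ± 0.14 (95% interval -0.33 to 0.27). Tlr4, the receptor for lipopolysaccharide, had from 13.7 to 23.7 CPM in WT Control and from 16.0 to 20.2 CPM in WT T1D (effect -0.19 ± 0.14, 95% interval -0.47 to 0.10). It had from 18.02 to 21.96 CPM in KO Control and from 13.9 to 21.4 CPM in KO T1D, and its effect there was -0.10 ± 0.13 (95% interval -0.37 to 0.17). These intervals leave room for changes of up to about 0.47 on the log2 scale in WT mice. For none of the 3 did T1D and control mice separate.

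Among the adaptors, Myd88 ranged from 52.0 to 67.7 CPM in WT Control and from 55.6 to 88.5 CPM in WT T1D, and its highest 2 values, 88.5 and 71.9 CPM, were those of A3905 and A3906. The T1D effect on Myd88 was 0.13 ± 0.11 in WT (95% interval -0.09 to 0.35) and 0.06 ± 0.10 in KO mice (95% interval -0.15 to 0.27). Ticam1, the adaptor of the interferon branch, ranged from 22.5 to 30.0 CPM in KO Control (median 25.9) and from 26.7 to 35.7 CPM in KO T1D (median 29.6). All 6 KO T1D mice lay above the KO Control mean of 26.03 CPM, and 2 lay above every KO Control mouse. The effect was 0.21 ± 0.09 in KO mice (95% interval 0.02 to 0.41, edgeR adjusted p = 1), 0.10 ± 0.10 in WT mice (95% interval -0.10 to 0.30), and 0.16 ± 0.07 averaged over genotypes (edgeR adjusted p = 0.256). On the log2(TPM + 1) scale the averaged value was -0.01, where the median of all genes was -0.14, so relative to that median it was 0.14.

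Tirap, which brings MYD88 to the membrane, had an effect of -0.00 ± 0.11 in WT (95% interval -0.22 to 0.22) and 0.05 ± 0.10 in KO mice (95% interval -0.15 to 0.26), over a range of 19.8 to 30.8 CPM in all 23 mice. Ticam2 ranged from 9.25 to 16.4 CPM over all mice, with effects of -0.11 ± 0.14 in WT (95% interval -0.41 to 0.18) and 0.01 ± 0.14 in KO mice (95% interval -0.27 to 0.30). Between libraries labelled KO and WT without diabetes, no member passed, where 0.0278% of all genes did, and the log2 fold changes ran from -0.25 (Tlr9) to 0.12 (Tlr7). Before adjustment none of the 10 had a p under 0.05, where 4.8% of all genes did. With T1D, no member passed either, where 0.0905% of all genes did, and 1 member, Tlr3, was higher at an unadjusted p under 0.05, against 8.44% of all genes. In none of the 4 comparisons of groups did the groups separate completely for any member. Over all genes they separated in 2.19% for T1D in WT, 0.258% for T1D in KO, 0.613% for KO against WT without diabetes, and 0.863% with it.

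Tlr3 and Tlr9 are carried by particular cell types, and in RNA of marrow-depleted bone fewer cells of a type cannot be told apart from less RNA per cell. All 5 markers of plasmacytoid dendritic cells, blood cells known for TLR7 and TLR9, were lower in WT T1D at an unadjusted p under 0.05, against 11.2% of all genes. Klk1 (-1.92, edgeR adjusted p = 0.0236) and the transcription factor Tcf4 (-0.54, adjusted p = 0.0418) passed the adjusted threshold, where 0.828% of all genes passed as lower. Without A3905 and A3906 neither passed in WT mice, where no gene did, and 2 of the 5 had an unadjusted p under 0.05. With T1D averaged over genotypes, all 5 were lower at an unadjusted edgeR p under 0.05, against 7.75% of all genes. There 1 of them passed, where 0.111% of all genes did, and 1 passed without A3905 and A3906. In KO mice all 5 were lower in sign, with a median of -0.13 and none passing. The summed level of the 5 markers was 159 to 180 CPM in WT Control, 60.6 to 153 CPM in WT T1D, 153 to 201 CPM in KO Control, and 152 to 175 CPM in KO T1D, so the WT groups did not overlap in this sum. Single genes that were lower in every WT T1D mouse than in every WT Control mouse made up 0.877% of all genes. All 10 erythroid markers were higher in WT T1D at an unadjusted p under 0.05, against 11% of all genes, and 5 passed, against 1.5%. Their summed level was 4767 to 6607 CPM in WT Control and 6832 to 11599 CPM in WT T1D, where A3905 and A3906 were the highest. All 8 osteoblast markers were lower in sign, 4 of them at an unadjusted p under 0.05, against 11.2% of all genes. Ibsp (-0.78, edgeR adjusted p = 0.0236) and Runx2 (-0.66, adjusted p = 0.0451) passed, where 0.828% of all genes passed as lower. Of the 8 macrophage or monocyte markers, 6 were lower in sign with none passing, and 2 were lower at an unadjusted p under 0.05, against 11.2% of all genes. Their summed level was 3516 to 4641 CPM in WT Control and 3834 to 5003 CPM in WT T1D. Without A3905 and A3906, no gene passed in WT mice, so no marker of these 4 lists did. Their median log2 fold changes were then -0.27 (plasmacytoid dendritic cell), 0.40 (erythroid), -0.37 (osteoblast), and -0.20 (macrophage or monocyte). With all mice they were -0.63, 0.51, -0.77, and -0.10 in the same order. No marker of the 4 lists was at 0 in any mouse. Of the 7 B cell markers, none was higher or lower in WT T1D at an unadjusted p under 0.05. Their median log2 fold change was -0.03, and it was 0.40 without A3905 and A3906. The part of these cell types in the levels of Tlr3 and Tlr9 was not tested.

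Across mice, the 10 members were set against the mean log2(CPM + 0.5) of each of 13 marker lists, which gave 130 relations. After adjustment, 16 passed by Pearson's r and 3 by Spearman's rho (permutation tests with 100000 resamples, two-sided), and 9 passed by r without A3905 and A3906. The resampling shuffled mice without regard to group, so a difference between groups shared by a gene and a list enters these p values. Tlr1 levels followed macrophage or monocyte markers (r = 0.660, permutation p = 0.00054, adjusted p = 0.0172, and rho = 0.674, permutation p = 0.00069, adjusted p = 0.0449, over 23 mice). The relation was 0.540 without the 2 farthest mice, 0.659 within the 19 mice with IDs A36 to A39, and 0.677 within groups. Tlr2 followed the same markers (r = 0.593, permutation p = 0.00295, adjusted p = 0.0329, and rho = 0.572, permutation p = 0.00499, adjusted p = 0.0811), with r = 0.481 without the 2 farthest mice and 0.551 within IDs A36 to A39. The values were 0.673 for Tlr1 and 0.676 for Tlr2 without A3905 and A3906 (permutation, adjusted p = 0.0242 for both).

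Tlr3 ran opposite to erythroid markers (r = -0.660, permutation p = 0.00066, adjusted p = 0.0172, and rho = -0.746, permutation p = 6e-05, adjusted p = 0.0078). It was -0.811 without the 2 farthest mice, -0.696 within IDs A36 to A39, -0.371 within groups, and -0.613 without A3905 and A3906 (permutation p = 0.00475, adjusted p = 0.0617). For Tlr9 and plasmacytoid dendritic cell markers, A3905 and A3906 formed a cluster of their own, and among the other 21 mice r was 0.284 (permutation p = 0.211) and rho was 0.196 (permutation p = 0.392). The relations of Tlr9 with osteoblast and B cell markers were 0.163 and -0.168 among these 21 mice. Likewise, among them Myd88 and neutrophil markers gave r = 0.583 (permutation p = 0.00579, adjusted p = 0.0624) and rho = 0.512 (permutation p = 0.0195).

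The other 7 relations that passed by r among the 21 mice were those of Tlr1 with neutrophil markers (r = 0.670, rho = 0.692), Tlr2 with erythroid markers (r = -0.598, rho = -0.722), Tlr9 with T cell markers (r = 0.696, rho = 0.671), and 4 of Tlr3. For Tlr3 they were osteoblast (r = 0.608, rho = 0.574), osteocyte (r = 0.783, rho = 0.261), macrophage or monocyte (r = 0.625, rho = 0.500), and megakaryocyte or platelet markers (r = -0.642, rho = -0.611). Their adjusted p ran from 0.0175 to 0.0454 (permutation tests). Within groups, over all 23 mice, r was 0.497 for Tlr1 with neutrophil, -0.28 for Tlr2 with erythroid, and -0.173 for Tlr9 with T cell markers. For Tlr3 it was 0.296 with osteoblast, 0.471 with osteocyte, 0.426 with macrophage or monocyte, and -0.126 with megakaryocyte or platelet markers. The set of IDs A36 to A39 drops the A17 mice but holds A3905 and A3906 again. In that set, the value was -0.047 for Tlr9 with T cell markers, -0.043 for Tlr3 with osteocyte markers, and 0.359 for Tlr3 with megakaryocyte or platelet markers. With all 23 mice, these values were 0.096, 0.602, and -0.011. Over all 23 mice, the 3 relations that passed by rho were Tlr1 with macrophage or monocyte, Tlr3 with erythroid, and Tlr3 with osteoblast markers (rho = 0.648, permutation p = 0.00105, adjusted p = 0.0455).

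**Figure D4:**
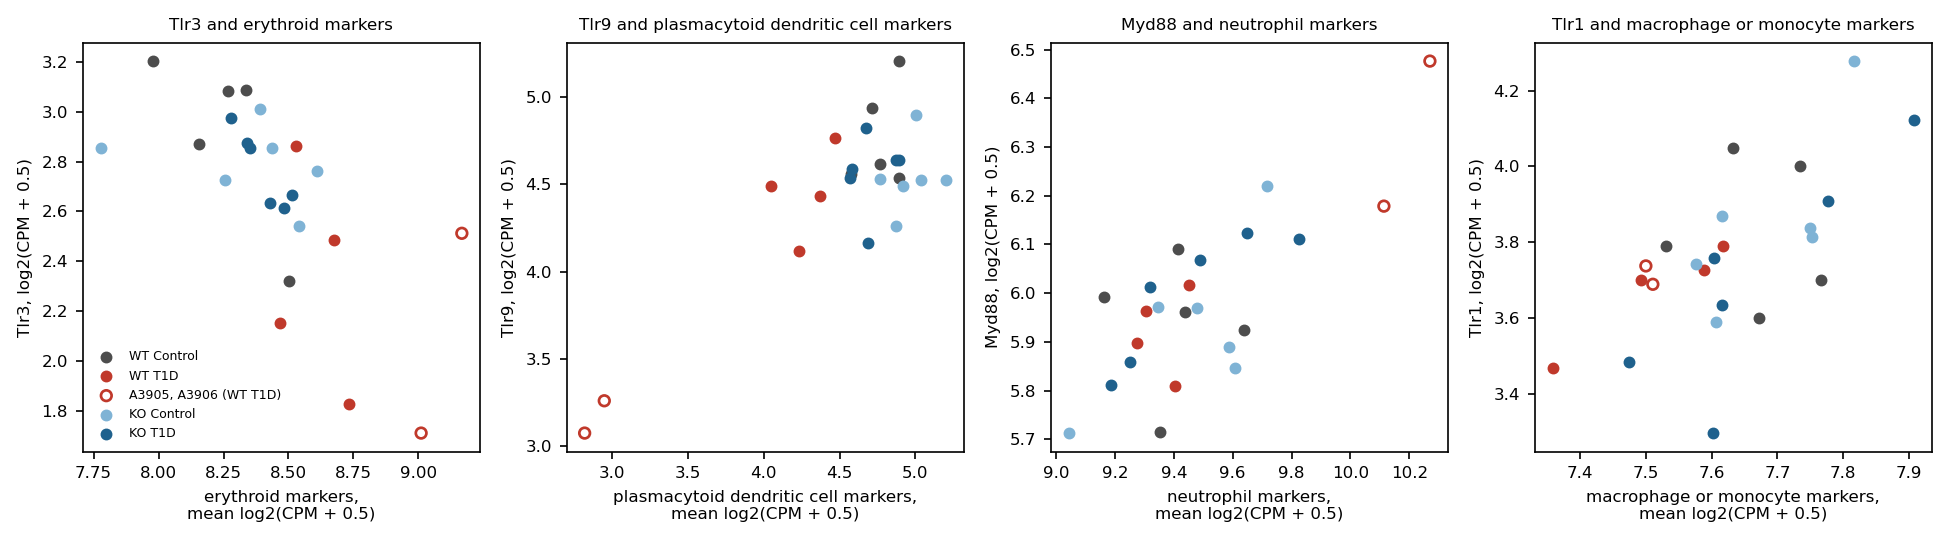
Level of 4 members, as log2(CPM + 0.5), against the mean of a marker list on the same scale, 1 point per mouse. The open circles, A3905 and A3906, lie apart for Tlr9 and Myd88, and the relation of Tlr1 with macrophage or monocyte markers (r = 0.660) was 0.673 without them.

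The genes whose pattern over the 23 mice was most like that of each member were sought among 13297 other genes with a mean of at least 1 CPM. For Tlr3 these included Afdn (r = 0.846), an adherens junction scaffold, and Lrp4 (r = 0.825), a receptor for agrin and sclerostin. For Tlr9 they were Cx3cr1 (r = 0.927), the fractalkine receptor of monocytes, Ifi203 (r = 0.912), and Rtl5 (r = 0.910). Without the 2 farthest mice these values were 0.702 and 0.679 for Tlr3 and 0.743, 0.585, and 0.649 for Tlr9. For Myd88 they were Abhd5 (r = 0.842), Mcemp1 (r = 0.836), and Tbc1d2 (r = 0.831), and for Tirap they were Cpd (r = 0.791), Trem1 (r = 0.772), which amplifies myeloid responses, and A530064D06Rik (r = 0.765). Clec5a, a myeloid lectin (r = 0.773), led for Tlr2, Adpgk (r = 0.791) for Tlr1, Rars2 (r = 0.717) for Tlr4, Gng10 (r = 0.716) for Tlr7, Pde6d (r = 0.729) for Ticam1, and Art2b (r = 0.746) for Ticam2. These values describe the closest of many genes and were not tested.

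The rest of the pathway was followed through 6 lists. Of 15 other TIR-domain genes, none passed with T1D in WT mice, and 2 were higher and 3 lower at an unadjusted p under 0.05, against 11% and 11.2% of all genes. Tlr11, a receptor for profilin and flagellin, had the largest log2 fold change (-1.41 ± 0.48, edgeR adjusted p = 0.0919) at 0.878 to 1.53 CPM in WT Control and 0.0566 to 0.788 CPM in WT T1D, so these groups did not overlap, as for 0.877% of all genes that were lower in every WT T1D mouse. Sarm1 itself was next (-0.77 ± 0.38, edgeR adjusted p = 0.238). Tlr11 was -0.93 (edgeR adjusted p = 0.431) without A3905 and A3906. Of 13 co-receptors and chaperones, 1 passed as higher, where 1.5% of all genes did. Cd36, a scavenger receptor that assists TLR2, rose from 48.9 to 74.5 CPM in WT Control to 87.5 to 192 CPM in WT T1D (0.93 ± 0.18, edgeR adjusted p = 0.0251), and these groups did not overlap, as for 1.32% of all genes that were higher in every WT T1D mouse. It was 53.2 to 74.1 CPM in KO T1D, lower than in WT T1D (-0.86 ± 0.17, edgeR adjusted p = 0.0489), and its interaction did not pass (-0.97 ± 0.25, adjusted p = 0.479). Without A3905 and A3906, Cd36 was 0.57 in WT mice (adjusted p = 0.131) and -0.50 in KO against WT with T1D (adjusted p = 0.270).

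None of 18 kinases and ubiquitin ligases passed. Their largest log2 fold changes in WT mice were those of Tab3, a ubiquitin-binding partner of TAK1 (0.41 ± 0.12, edgeR adjusted p = 0.0640), and Ube2v1 (0.29 ± 0.09, adjusted p = 0.0651). None of 12 transcription factors passed, with Irf7, which drives interferon genes downstream of TLR7 and TLR9, at -0.66 ± 0.22 (edgeR adjusted p = 0.0877) and Atf3 at -0.51 ± 0.29 (adjusted p = 0.304). None of 13 negative regulators passed, with the signaling inhibitor Socs1 at -0.59 ± 0.17 (edgeR adjusted p = 0.0562) and Traf1 at -0.46 ± 0.15 (adjusted p = 0.0806). Irf7 was -0.39 in WT mice (edgeR adjusted p = 0.441) without A3905 and A3906. In KO mice, Irf7 was -0.28 ± 0.21 and Socs1 was 0.05 ± 0.16 (edgeR adjusted p = 1 for both).

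Of 18 cytokines and other induced targets, 13 were tested. With T1D in WT mice, 2 passed the adjusted threshold as lower, where 0.828% of all genes did, and none passed as higher. The chemokine Cxcl10, an interferon-responsive attractant of T cells, fell from 4.83 to 15.8 CPM in WT Control to 0.906 to 4.93 CPM in WT T1D (-1.59 ± 0.37, edgeR adjusted p = 0.0418). Ccl2, which attracts monocytes, fell from 1.095 to 2.76 CPM to 0.226 to 0.803 CPM (-1.55 ± 0.41, edgeR adjusted p = 0.0494), and these groups did not overlap, as for 0.877% of all genes that were lower in every WT T1D mouse, whereas those of Cxcl10 did. In KO mice the values were -0.59 ± 0.34 for Cxcl10 and -1.39 ± 0.38 for Ccl2 (edgeR adjusted p = 1 for both), and averaged over genotypes Ccl2 fell by 1.47 (edgeR adjusted p = 0.0415). Without A3905 and A3906, neither passed in WT mice (-1.24, adjusted p = 0.288, and -1.31, adjusted p = 0.310) or on average for Ccl2 (-1.35, adjusted p = 0.0952). The median of the 13 targets was -0.39 in WT and -0.12 in KO mice.

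**Figure D5:**
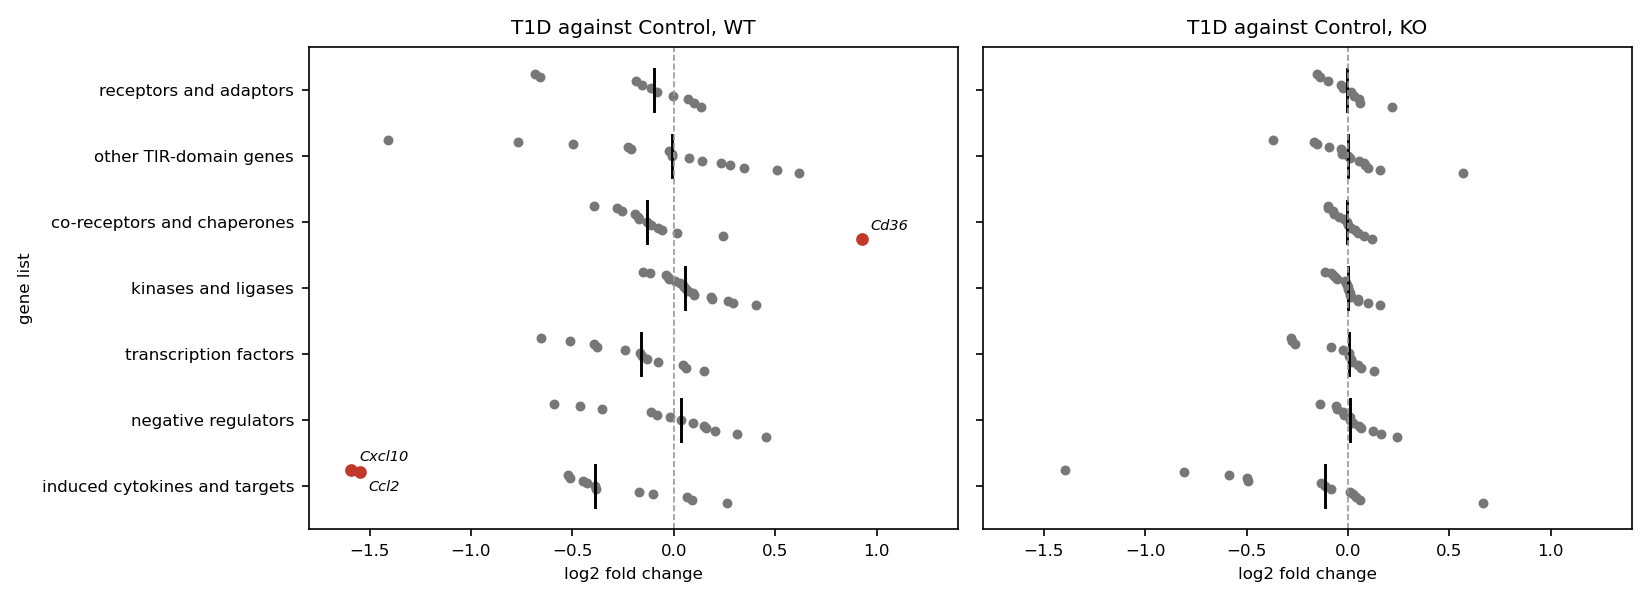
Log2 fold change with T1D in WT (left) and KO mice (right) for each tested gene of the 10 members and of 6 pathway lists, with the list median as a black bar and genes past an adjusted p of 0.05 in red. Cd36 (0.93), Cxcl10 (-1.59), and Ccl2 (-1.55) passed in WT mice, and no gene passed in KO mice.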

How the data were processed

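RNA-Seq had been performed on bone from 23 mice, 1 library each. The authors deposited expected counts estimated per gene with RSEM and rounded to whole numbers, and TPM from the sequencing provider. These came from paired-end reads of a strand-marked oligo dT library, cleaned by SOAPnuke, with HISAT and Bowtie2 named as aligners and GRCm38.p6 as the build. Program versions and the strand setting of the counting were not given in the sources used here. All 23 libraries were grouped by their labels, and the labels do not say whether mice shared a cage or litter. A gene was fitted if 5 or more mice had 10 or more counts, in edgeR 4.0.16 (R 4.3.3) with TMM scaling and a quasi-likelihood model of the 4 groups, and p values were adjusted by Benjamini-Hochberg over 14364 genes with a threshold of 0.05. CPM were computed on the TMM-scaled total. SE and intervals were computed back from the quasi-likelihood F test, which shares information on the spread between mice across genes. Alternatives used DESeq2 1.42.0, limma 3.58.1 on log2(TPM + 1) and log2(TPM + 0.1), other filters and scaling, subsets of mice, and leaving out each mouse. The script was tested on simulated data. Gene positions, promoters, and transcripts came from RefSeq and GENCODE tables of the same build, read in Python 3.11.15 with pandas 2.3.3 and numpy 2.4.6 and drawn with matplotlib 3.10.9.

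The members and all gene lists were chosen with earlier results of these data known. Genes named outside the members were Sarm1, the genes of each pathway list past the threshold in any comparison or otherwise the 2 with the largest T1D effect in WT mice, and, from the 3 genes most like each member, all for Tlr3, Tlr9, Myd88, and Tirap and the first for the others. 1 of these genes is not reported here. Marker genes named beside Tlr3 and Tlr9 were chosen after their values were seen. Protein sequences were not used here.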

Additional observations from a re-analysis of the deposited data

Results flagged for a closer look

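Each member was checked in each group for a mouse set apart from the rest of its group, by the gap to the nearest mouse as a share of the group's range (Dixon's test at 95%). Of 40 groups of values, 6 were marked, and chance alone marks about 1 in 20. None of the 6 was a value of A3905 or A3906. In WT T1D, mouse A1787 was lowest for Tlr1 at 10.6 CPM, with the next at 12.4 CPM. In KO Control, mouse A3766 was highest for Tlr1 at 18.9 CPM, with the next at 14.1 CPM. In WT Control, mouse A3767 was highest for Tlr2 at 29.6 CPM, with the next at 24.2 CPM. In KO Control, mouse A3680 was highest for Tlr9 at 29.3 CPM, with the next at 22.6 CPM. In WT Control, mouse A3907 was lowest for Tirap at 20.5 CPM, with the next at 25.2 CPM. In KO T1D, mouse A3683 was highest for Tirap at 30.8 CPM, with the next at 24.9 CPM. No interaction of T1D and genotype passed for any member.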

How the results depend on the processing

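Over 9 alternatives, 490 values of the members were recomputed and 15 newly passed an adjusted p of 0.05, among them Tlr3 with T1D in WT mice in 5 and Tlr9 in 4 of 8. On the TPM scale the median of all genes moved to -0.24 in WT T1D with log2(TPM + 1) and -0.29 with log2(TPM + 0.1), and relative to it Tlr3 was -0.39 and -0.66 and Tlr9 was -0.67 and -0.75. Tlr1 (-0.37 and -0.42) passed on both TPM scales and Tlr4 (-0.35) with log2(TPM + 1), and relative to the shift they were -0.13, -0.13, and -0.11. Ticam1 averaged over genotypes became -0.0053 and -0.0056, or 0.14 and 0.17 relative to the median of all genes. In all, 59 values changed sign, none past the threshold and none above 0.21 in size before or after. Among mouse IDs A36 to A39, KO against WT with T1D passed for Tlr9 (0.87, edgeR adjusted p = 0.0315). A3905 and A3906 were 2 of the 3 WT T1D mice in that set, and without them the value was 0.11. Over 8 alternatives, the adjusted p of this comparison ran from 0.0315 to 0.907.

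Counts of genes called depended on the settings, and the causes were not tested. With T1D in WT mice, 334 genes became 1002 with DESeq2, 88 with no filter, 5154 and 5173 on the TPM scales, 2205 among IDs A36 to A39, and 0 without A3905 and A3906. Of the called genes, 215 of 334 were higher with counts, against 83 of 5154 with log2(TPM + 1). Averaged over genotypes, 16 became 249 with DESeq2, 1106 and 951 on the TPM scales, 537 among IDs A36 to A39, and 4 without A3905 and A3906. For KO against WT with T1D, 13 became 239 with DESeq2, 5 with RLE scaling, 3 with no filter, 1166 and 1185 on the TPM scales, 1538 among IDs A36 to A39, and 4 without A3905 and A3906. The interaction had 2 genes with log2(TPM + 1). Leaving out 1 mouse at a time gave 0 to 1264 genes for T1D in WT (1264 without WT T1D replicate 6, 0 without WT Control replicates 2 and 5), 0 to 1 for T1D in KO, 0 for the interaction, 0 to 210 for the average, 3 to 4 for KO against WT among controls, and 3 to 95 with T1D. In the same fits Tlr3 in WT ran from -0.84 to -0.57 and passed in 2 of 23, and Tlr9 ran from -0.81 to -0.50 and passed in 1 of 23.

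Without A3905 and A3906, the number of genes called in each list with any call in WT mice became 0, as did the number over all genes. This alternative for the lists was chosen after seeing the data.

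No paired analysis was possible because no mouse ID occurs in 2 groups and replicate numbers only follow the order of deposit. Depth limits Sarm1, Tlr11, and Ccl2, which had few counts.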
